A study of Mus musculus with 6 samples.

Results

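Fatty acid and triglyceride synthesis in bone was followed through 10 genes: Acly, Me1, Acaca, Fasn, Elovl6, Scd1, Gpd1, Dgat2, Thrsp and the transcription factor gene Srebf1. The genes were taken by symbol for these roles, and all 10 were found among the 54532 genes of the deposited table. Bone RNA was sequenced from 3 wild-type (WT) libraries and 3 libraries of MIR29cb2-/- mice (called knockout below), which lack the microRNA cluster miR-29b-2 and miR-29c. All libraries came from female C57BL/6J animals aged 16 weeks, and no other allele or treatment is labelled in either group. Which bone was used, whether it held marrow, in which cells and from what age the cluster was missing, and whether each library is its own animal are not stated. The p-values therefore reflect only how these libraries spread, which may be technical.

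Lipogenesis turns surplus carbon into stored fat. ATP citrate lyase (Acly) makes cytosolic acetyl-CoA from citrate, acetyl-CoA carboxylase (Acaca) converts it to malonyl-CoA, and fatty acid synthase (Fasn) builds palmitate with NADPH that malic enzyme (Me1) helps to supply. Elovl6 lengthens palmitate, Scd1 inserts a double bond, Gpd1 makes the glycerol 3-phosphate backbone, and Dgat2 adds the last acyl chain of a triglyceride. SREBP-1, the product of Srebf1, switches on many of these enzyme genes, and Thrsp (Spot 14) is a nuclear protein of lipogenic tissues that responds to thyroid hormone and carbohydrate. Fat cells of the marrow and around bone are a rich source of these transcripts, but blood cell precursors and bone cells also make fatty acids.

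The microRNAs of the deleted cluster and miR-29a, encoded at another locus, pair with mRNAs through bases 2 to 8, the seed, shown in capitals (RefSeq, GRCm38.p6).
mmu-miR-29b-3p: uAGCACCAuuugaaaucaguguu
mmu-miR-29c-3p: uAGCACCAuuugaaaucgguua
mmu-miR-29a-3p: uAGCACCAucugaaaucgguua
All 3 have the same seed, whose complement in an mRNA is TGGTGCT. The longest annotated 3′ UTR of each of the 10 genes (GENCODE M21) was searched for these letters on the mRNA strand. Scd1 alone had a match, 1 in a UTR of 3464 bases, and the other 9 genes had 0. Among 1331 tested genes with a UTR of 2772 to 4330 bases, 30.7% had at least 1 match, and among all 11667 tested genes with a UTR the share was 15.4%. The Scd1 match starts at base 346 of the UTR on the minus strand of chromosome 19. It is shown in capitals as the only match in the 10 genes.
Scd1 site, chr19:44397555-44397584, minus strand: tagggtgagcaTGGTGCTcagtccctgttt
It lacks the A opposite base 1 of the microRNA that makes an 8-base site. A match is a description of the letters, and no binding was measured here. Whether it bears on the level of Scd1 was not tested.

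Promoters are shown for Thrsp and Me1, which fell in the knockout, and for Fasn, which did not pass the test. Each runs from 250 bases before to 50 bases after a RefSeq start (GRCm38.p6), and such a sequence was found for 7 of the 10 genes. Scd1, Gpd1 and Dgat2 were not among them.
Thrsp promoter, chr7:97417501-97417800, minus strand: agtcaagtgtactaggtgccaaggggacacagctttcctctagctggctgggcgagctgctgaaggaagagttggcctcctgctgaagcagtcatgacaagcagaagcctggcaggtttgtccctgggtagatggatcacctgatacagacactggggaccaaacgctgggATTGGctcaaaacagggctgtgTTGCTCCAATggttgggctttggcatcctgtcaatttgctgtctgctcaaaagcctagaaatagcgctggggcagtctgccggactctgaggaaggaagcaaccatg
Me1 promoter, chr9:86695865-86696164, minus strand: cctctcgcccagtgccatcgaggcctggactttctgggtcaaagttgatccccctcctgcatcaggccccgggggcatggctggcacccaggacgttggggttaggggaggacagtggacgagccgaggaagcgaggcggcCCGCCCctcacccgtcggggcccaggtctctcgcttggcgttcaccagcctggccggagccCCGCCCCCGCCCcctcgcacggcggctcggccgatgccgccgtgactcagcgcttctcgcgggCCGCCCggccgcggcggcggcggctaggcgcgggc
Fasn promoter, chr11:120824498-120824797, minus strand: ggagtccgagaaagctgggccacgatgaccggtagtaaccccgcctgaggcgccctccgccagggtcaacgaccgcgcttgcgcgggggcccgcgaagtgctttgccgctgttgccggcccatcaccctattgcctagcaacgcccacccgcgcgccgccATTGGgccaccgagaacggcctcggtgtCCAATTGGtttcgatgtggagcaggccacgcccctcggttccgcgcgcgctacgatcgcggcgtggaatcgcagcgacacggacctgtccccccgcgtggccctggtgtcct
Capitals mark matches, on either strand, to the CCAAT box (CCAAT), the GC box (GGGCGG), the E-box CACGTG, the TATA box TATAAA, the C/EBP palindrome TTGCNNCAA, a sterol response element or a PPAR-RXR direct repeat. Thrsp held 2 CCAAT boxes and 1 match to TTGCNNCAA, which overlaps a CCAAT box. Of 32851 promoters 37.4% and 2.08% had at least 1 match to these. Me1 held 4 GC boxes (35.7% of promoters have at least 1), and Fasn held 3 CCAAT boxes, of which 2 overlap on opposite strands. None of the 3 windows held a match to the other 4 motifs, found in 7.15% (E-box), 13.6% (TATA box), 0.0913% (sterol response element) and 0.0396% (PPAR-RXR repeat) of promoters. Only these exact letters were searched, so a window without a match can still hold a variant of such a site. The Thrsp window is taken around a RefSeq start at base 97417550, while the GENCODE gene starts at 97417730. The window of a further RefSeq start of Me1, at base 86687277, is not shown and held 0 GC boxes and 1 CCAAT box.

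Levels are given as FPKM, which divides the reads of a gene by its exon length and by library size, so levels of different genes can be compared per length. Whole reads recovered from the FPKM steps came to 16727111 to 20118034 per library. WT replicate 2 and knockout replicate 1 stood apart: their FPKM values summed to 489576 and 487102, the other libraries to between 355787 and 404994, and long genes tended to lie below their group mean in both (Spearman's rho over genes -0.42 and -0.45). In the other libraries long genes tended to lie above it, most in WT replicate 1 (0.41) and knockout replicate 3 (0.40). The host transcript of the cluster, A330023F24Rik, stood at 0.197, 0.153 and 0.136 FPKM in WT replicates 1 to 3 and at 2.51, 3.25 and 4.08 in knockout replicates 1 to 3. It was thus higher in the knockout, Mir29b-2 and Mir29c were listed at 0 in all 6 libraries, which are not made to capture such short RNAs, so no lost transcript was there to check the labels against. Differences were tested with limma on log2(FPKM + 1) over the 13619 genes whose mean FPKM reached 1, with p-values adjusted over all of them and a threshold of 0.05. All 10 lipogenic genes passed that filter. For low genes the log2 changes on this scale come out too small.

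Of the 10 genes 4 fell in knockout bone, 0 rose and 6 did not pass in limma, with unadjusted p-values of 0.0843 to 0.529 for those 6. Scd1, Gpd1, Thrsp and Me1 fell to between 17.2% and 31.7% of the wild-type mean, while Acly, Acaca, Fasn, Elovl6, Dgat2 and Srebf1 stood at 56.0% to 121% of it. Over all genes tested 3.82% fell and 1.34% rose, 5.16% together. The knockout and WT libraries did not overlap for the same 4 genes, against 28.4% of all genes tested (13.7% lower in the knockout). The median log2 change of the 10 was -0.39, beside 0.06 for all genes tested.

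**Figure D1:**
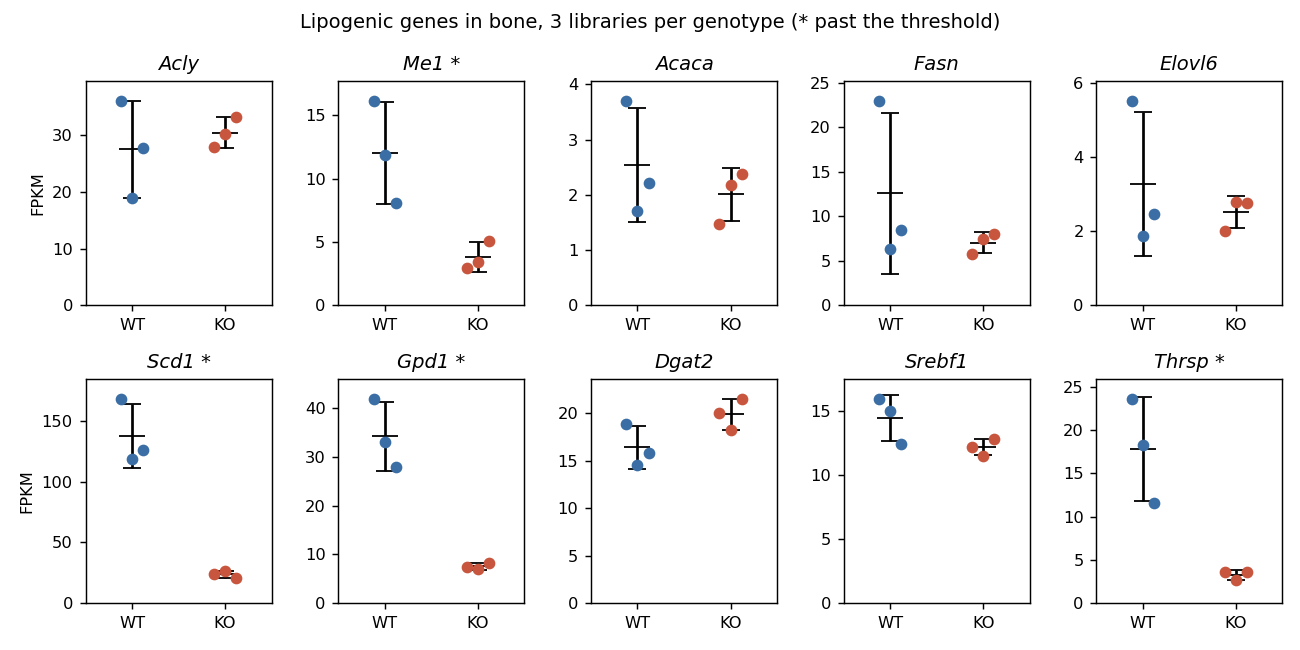
FPKM of the 10 genes (vertical axes, each from 0) in 3 wild-type (blue) and 3 knockout (red) libraries, with the mean and SD in black and an asterisk at genes past the threshold. The knockout points of Me1, Scd1, Gpd1 and Thrsp lie below all wild-type points, while in the other 6 panels the groups overlap.

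The desaturase Scd1, which makes oleate and palmitoleate, was the most abundant of the genes in wild-type bone. Its level was 168, 119 and 126 FPKM in WT replicates 1 to 3 and 23.7, 26.7 and 20.7 in knockout replicates 1 to 3. All knockout libraries were far below all wild-type libraries, and the ratio of the means was 5.81 (138 ± 26.5 against 23.7 ± 3.0 FPKM, SD, n = 3). The log2 change was -2.48 ± 0.18 (SE; limma adjusted p = 0.00349). It passed under all 17 alternative settings that gave it a value, with log2 changes of -2.58 to -2.32. Scd1 (ENSMUSG00000037071) lies on the minus strand at chr19:44394455-44407879 (mm10), and no whole reads could be recovered for it.

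Gpd1, the cytosolic glycerol 3-phosphate dehydrogenase, was the second most abundant. It stood at 41.9, 33.0 and 27.9 FPKM in WT replicates 1 to 3, from 1489 to 2556 reads, and at 7.42, 6.87 and 8.24 in knockout replicates 1 to 3, from 354 to 422 reads. The groups did not overlap, and the knockout libraries lay within a 1.2-fold range of each other. Gpd1 fell by 2.04 ± 0.17 on the log2 scale (SE, limma adjusted p = 0.00574) and passed in all 18 alternatives. Gpd1 (ENSMUSG00000023019) lies on the plus strand at chr15:99717515-99725005. The antisense gene Gm16537 overlaps Gpd1 and reached at most 0.344 FPKM.

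Thrsp, the lipogenic cofactor, stood at 23.6, 18.3 and 11.6 FPKM in WT replicates 1 to 3 and at 3.58, 2.60 and 3.54 in the knockout libraries, the latter from 99 to 134 reads each. The lowest wild-type library was still above the highest knockout library, although the wild-type values spread 2.03-fold. Its log2 change was -2.11 ± 0.25 (SE, limma adjusted p = 0.0111). Without knockout replicate 2 the change was -1.99 and the adjusted p 0.0535, and without both libraries that stood apart they were -2.12 and 0.0566. In the other 16 alternatives Thrsp passed. The gene (ENSMUSG00000035686) lies on the minus strand at chr7:97412938-97417730.

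Me1, the cytosolic malic enzyme, stood at 16.1, 11.9 and 8.09 FPKM in WT replicates 1 to 3 and at 2.92, 3.40 and 5.11 in knockout replicates 1 to 3. The groups did not overlap, but the gap between the lowest wild-type and the highest knockout library was the narrowest of the 4 genes that fell. Me1 fell by 1.42 ± 0.26 on the log2 scale (SE, limma adjusted p = 0.0337). Me1 (ENSMUSG00000032418) lies on the minus strand at chr9:86581371-86695953. Of the 4 calls it was lost most often, with 11 of 18 alternatives past the threshold and limma adjusted p-values of 0.00828 to 0.127 over the 18. It was lost without WT replicate 1 (adjusted p = 0.1), WT replicate 2 (0.0751), knockout replicate 1 (0.0944) or knockout replicate 2 (0.127), and without both libraries that stood apart (0.117), with log2 changes of -1.40 to -1.20.

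The enzymes that make acetyl-CoA and build the palmitate chain did not pass. Their genes, Acly (ENSMUSG00000020917, chr11:100476353-100528000, minus strand), Acaca (ENSMUSG00000020532, chr11:84129672-84401651, plus strand) and Fasn (ENSMUSG00000025153, chr11:120805846-120824547, minus strand), share a chromosome. Fasn stood at 22.9, 6.33 and 8.43 FPKM in WT replicates 1 to 3 and at 5.70, 7.40 and 7.97 in knockout replicates 1 to 3. WT replicate 1 was 3.61 times the lowest wild-type library, and the other wild-type values fell within or close to the knockout range. The log2 change of Fasn was -0.57 with a 95% interval of -1.54 to 0.40 (limma adjusted p = 0.508), and it was -0.06 without WT replicate 1. Acaca had the same shape at a lower level, with 3.69, 1.70 and 2.21 FPKM in the wild type and 1.47, 2.18 and 2.37 in the knockout libraries. Its log2 change was -0.21 (interval -0.76 to 0.34, limma adjusted p = 0.687), and 0.02 without WT replicate 1. Acly, high in both genotypes, stood at 36.0, 18.9 and 27.8 FPKM in the wild type and at 27.9, 30.2 and 33.3 in the knockout libraries, which lay inside the wild-type range. Its log2 change was 0.18 (interval -0.35 to 0.72, limma adjusted p = 0.72), and -0.06 without WT replicate 2.

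Elongation and the last step of triglyceride assembly did not pass either. Elovl6 (ENSMUSG00000041220, chr3:129532355-129638495, plus strand) stood at 5.51, 1.86 and 2.47 FPKM in WT replicates 1 to 3 and at 2.01, 2.79 and 2.75 in the knockout libraries. As for Fasn, WT replicate 1 was far above the other 5 libraries. The log2 change of Elovl6 was -0.20 (interval -0.91 to 0.51, limma adjusted p = 0.771), and 0.15 without WT replicate 1. Dgat2 (ENSMUSG00000030747, chr7:99153658-99182719, minus strand), the acyltransferase of lipid droplet growth, stood at 18.9, 14.5 and 15.8 FPKM in the wild type and at 20, 18.2 and 21.5 in the knockout libraries. Its groups overlapped through WT replicate 1 only, and its log2 change was 0.27 (interval -0.05 to 0.59, limma adjusted p = 0.323).

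Srebf1, the regulator, had the narrowest spread of the 10 genes within both genotypes. The gene (ENSMUSG00000020538) lies on the minus strand at chr11:60199089-60222581. It stood at 15.9, 15 and 12.4 FPKM in WT replicates 1 to 3 and at 12.2, 11.5 and 12.8 in the knockout libraries, so knockout replicate 3 lay above WT replicate 3. The log2 change was -0.22 (interval -0.51 to 0.07, limma adjusted p = 0.388). The table does not separate the transcripts for SREBP-1a and SREBP-1c, which start at different promoters. The estimated log2 changes of Scd1, Gpd1 and Thrsp lay outside the intervals of all 6 genes that did not pass. The estimate of Me1 lay outside all of them but that of Fasn. These estimates have intervals of their own. The interval of Fasn overlapped those of Thrsp (-2.69 to -1.52) and Me1 (-2.04 to -0.80), and the interval of Elovl6 overlapped that of Me1. Whether the 4 genes that fell differ in their change from the other 6 was not tested.

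**Figure D2:**
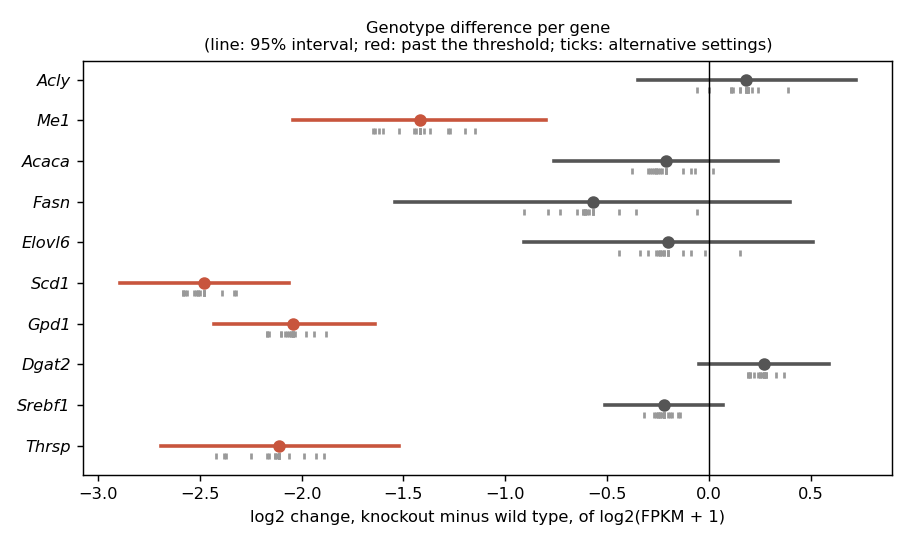
Log2 change of each gene, knockout minus wild type, on the log2(FPKM + 1) scale (horizontal axis), with its 95% interval as a line and the values under alternative settings as ticks. Me1, Scd1, Gpd1 and Thrsp (red, past the threshold) have intervals below 0, from -2.89 to -0.80, while the intervals of the other 6 (grey) cross 0.

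The make-up of the 10 transcripts shifted with genotype. Their summed level was 352, 240.1 and 243 FPKM in WT replicates 1 to 3 and 107, 112 and 118 in the knockout libraries. Scd1 made up 47.7 to 52.0% of that sum in the wild type and 17.5 to 23.9% in the knockout. The 4 genes that fell summed to 174 to 249 FPKM in the wild type and 37.6 to 39.6 in the knockout. The other 6 summed to 58.3 to 103 and 69.4 to 80.6, ranges that overlap. The genes were split by their calls in these same libraries, so the gap in the first sum follows from the split. By mean level the order in the wild type was Scd1, Gpd1, Acly, Thrsp, Dgat2, Srebf1, Fasn, Me1, Elovl6 and Acaca. In the knockout Acly was first and Scd1 second, followed by Dgat2, Srebf1, Gpd1, Fasn, Me1, Thrsp, Elovl6 and Acaca. Neighbours in the wild-type order overlapped in their library values, except that Scd1 lay above Gpd1 and Me1 above Elovl6 in all libraries. In the knockout, gaps without overlap lay between Acly and Scd1, Dgat2 and Srebf1, Srebf1 and Gpd1, and Fasn and Me1. Within the wild type, replicate 1 was the highest library for all 10 genes, and replicate 2 the lowest for 6 and replicate 3 for 4. Within the knockout, replicate 3 was the highest for 7.

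Close relatives of Scd1, Gpd1 and Thrsp did not pass, while Me3, a relative of Me1, was too low to be tested. Other relatives of Me1 were not followed. Scd2, the other desaturase of the family with a sizeable level, stood at 21.3, 18.6 and 15.6 FPKM in the wild type and 15.6, 19.3 and 26.7 in the knockout libraries (log2 change 0.12, interval -0.38 to 0.62, limma adjusted p = 0.81). Scd3 and Scd4 were at most 0.122 FPKM. The ratio of Scd1 to Scd2 within a library was 6.39 to 8.07 in the wild type and 0.775 to 1.52 in the knockout, so in knockout replicate 3 Scd2 was the more abundant. Gpd1l, a homologue of Gpd1, had a log2 change of -0.08 (interval -0.38 to 0.22, limma adjusted p = 0.777), and the ratio of Gpd1 to Gpd1l went from 1.37 to 1.92 in the wild type to 0.330 to 0.453 in the knockout libraries. Mid1ip1, the paralogue of Thrsp, had a log2 change of 0.08 (interval -0.30 to 0.46, limma adjusted p = 0.838), and the ratio of Thrsp to Mid1ip1 was 0.386 to 0.969 and 0.0838 to 0.12. Nor did the relatives of genes that did not pass: Dgat1 had a log2 change of 0.34 (interval -0.04 to 0.71), Acacb of -0.27 (interval -0.85 to 0.31) and Srebf2 of -0.02 (interval -0.37 to 0.33), with limma adjusted p-values of 0.294, 0.609 and 0.959. Me3, the mitochondrial NADP-dependent malic enzyme, was named after its values were seen. It stood at 0.757, 1.31 and 0.606 FPKM in the wild type and at 0.173, 0.212 and 0.411 in the knockout libraries, without overlap and with a knockout mean at 29.8% of the wild-type mean, beside 31.7% for Me1. The ratios of Dgat2 to Dgat1, Acaca to Acacb and Srebf1 to Srebf2 overlapped between the genotypes. These ratios cancel the scaling of a library and were not tested. The sources do not tell how reads shared by similar family members were assigned.

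**Figure D3:**
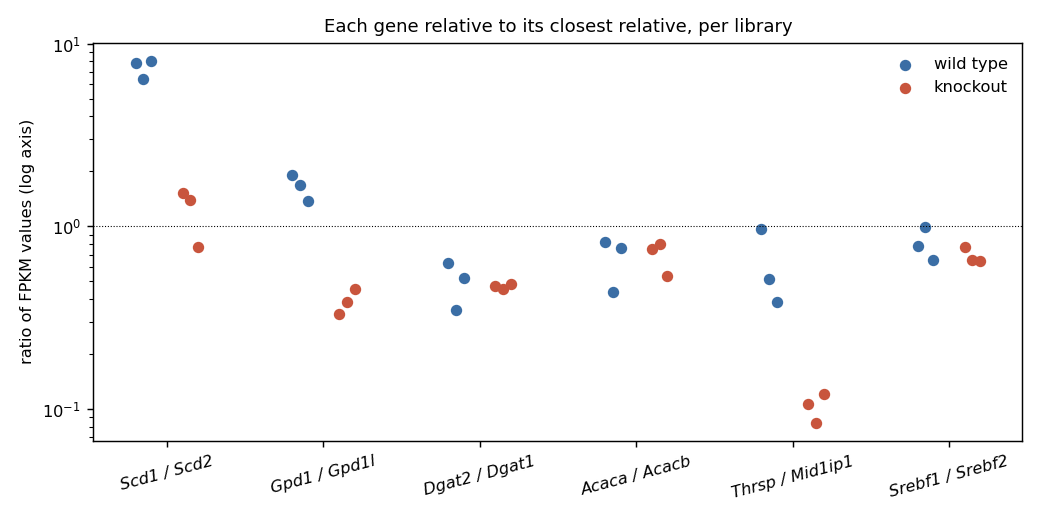
Ratio of the FPKM values of a gene to those of a relative of the same family (vertical log axis) in each wild-type (blue) and knockout (red) library. The knockout points lie below all wild-type points for Scd1 to Scd2, Gpd1 to Gpd1l and Thrsp to Mid1ip1, and the groups overlap for the other 3 pairs.

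Around the 10 genes, 7 lists covered 117 genes of the pathway, of which 100 were tested, 3 rose, 5 fell and 92 did not pass. Apart from the 10 genes, 90 were tested, 3 rose and 1 fell, or 4.44%, near the 5.16% of all genes tested. The median log2 change of the 100 was -0.05. G6pdx, the first enzyme of the pentose phosphate route to NADPH, stood at 46.8, 48.8 and 53.8 FPKM in the wild type and at 104, 95.1 and 103 in the knockout libraries. All knockout libraries lay well above all wild-type ones, and G6pdx rose by 1.00 ± 0.12 on the log2 scale (SE, limma adjusted p = 0.0130). Its call was lost without WT replicate 1 (adjusted p = 0.0609) or knockout replicate 2 (0.0661). In the list of carbon and NADPH supply, with 10 tested genes, G6pdx rose and Me1 fell. The ratio of G6pdx to Me1 within a library was 2.91 to 6.65 in the wild type and 20.1 to 35.6 in the knockout. In that list 6 of the 10 genes had an unadjusted p under 0.05, as did 2812 of all 13619 genes tested. The groups did not overlap for 4 lower and 2 higher genes, against 13.7% and 14.7% of all genes tested. Those of the 6 that missed the threshold were named after their values were seen. Pgd, the next NADPH-yielding enzyme of the pentose phosphate route, stood at 147% of the wild-type mean in the knockout. The citrate carrier Slc25a1 stood at 72.9%, the pyruvate carrier subunit Mpc1 at 71.6% and pyruvate carboxylase (Pcx) at 54.1%. Their limma adjusted p-values were 0.0838, 0.134, 0.133 and 0.105.

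In the list of chain synthesis 0 of 6 tested genes passed in limma, and 0 had an unadjusted p under 0.05 (median log2 change -0.06). Of 14 genes of elongation and desaturation Scd1 and Fads1 fell and 0 rose (median 0.06). Fads1, the delta-5 desaturase of polyunsaturated fatty acids, stood at 18.2, 17.5 and 17.6 FPKM in the wild type and at 11.9, 12.5 and 13.2 in the knockout libraries, a narrow spread in both. Its log2 change was -0.47 (limma adjusted p = 0.0457), and the call was lost on leaving out any of the 6 libraries (adjusted p-values of 0.0766 to 0.183). Of 20 genes of glycerol backbone and triglyceride assembly Gpd1 fell and Gk rose (median -0.01). Gk, glycerol kinase, which makes glycerol 3-phosphate from free glycerol, stood at 2.37, 2.30 and 2.63 FPKM in the wild type and at 4.21, 5.19 and 4.95 in the knockout libraries. The groups were well apart and the log2 change was 0.75 (limma adjusted p = 0.0234), but the call was lost without WT replicate 1 (0.0939), WT replicate 2 (0.0553), knockout replicate 2 (0.111) or knockout replicate 3 (0.0687).

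Of 25 tested regulators Thrsp fell, Cebpb rose and 23 did not pass (median log2 change -0.04). In that list 9 genes had an unadjusted p under 0.05. The groups did not overlap for 7 lower and 2 higher genes, against 13.7% and 14.7% of all genes tested. Cebpb, a transcription factor of early fat cell formation and of myeloid cells, stood at 14.8, 27.8 and 12.9 FPKM in the wild type and at 36.5, 48.1 and 55.9 in the knockout libraries. Its log2 change was 1.35 with a limma adjusted p of 0.0495, just inside the threshold, and 13 of 18 alternatives put it outside, with adjusted p-values of up to 0.162 (without knockout replicate 2). The call was also lost without WT replicate 1 (0.152) or 3 (0.119) and without knockout replicate 1 (0.0853) or 3 (0.131). Pparg, the master regulator of fat cells, and Mlxipl, which encodes the carbohydrate-sensing factor ChREBP, were named after their values were seen. Pparg had a log2 change of -0.44 (limma adjusted p = 0.12) and Mlxipl one of -0.82 (0.0859), and neither passed. In the knockout Pparg stood at 70.8% of the wild-type mean and Mlxipl at 32.4%, both without overlap. Mlxipl was low (means of 1.83 FPKM in the wild type and 0.592 in the knockout), so its log2 change comes out too small. Of 15 tested genes of fatty acid oxidation 0 passed in limma and 0 had an unadjusted p under 0.05 (median -0.11), the smallest p being that of Decr1, an auxiliary enzyme for unsaturated chains (log2 change -0.25). Of 10 tested cholesterol genes under SREBP-2 0 passed in limma and 1 had an unadjusted p under 0.05 (median 0.02), the smallest p being that of Mvd, mevalonate decarboxylase (log2 change 0.38).

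**Figure D4:**
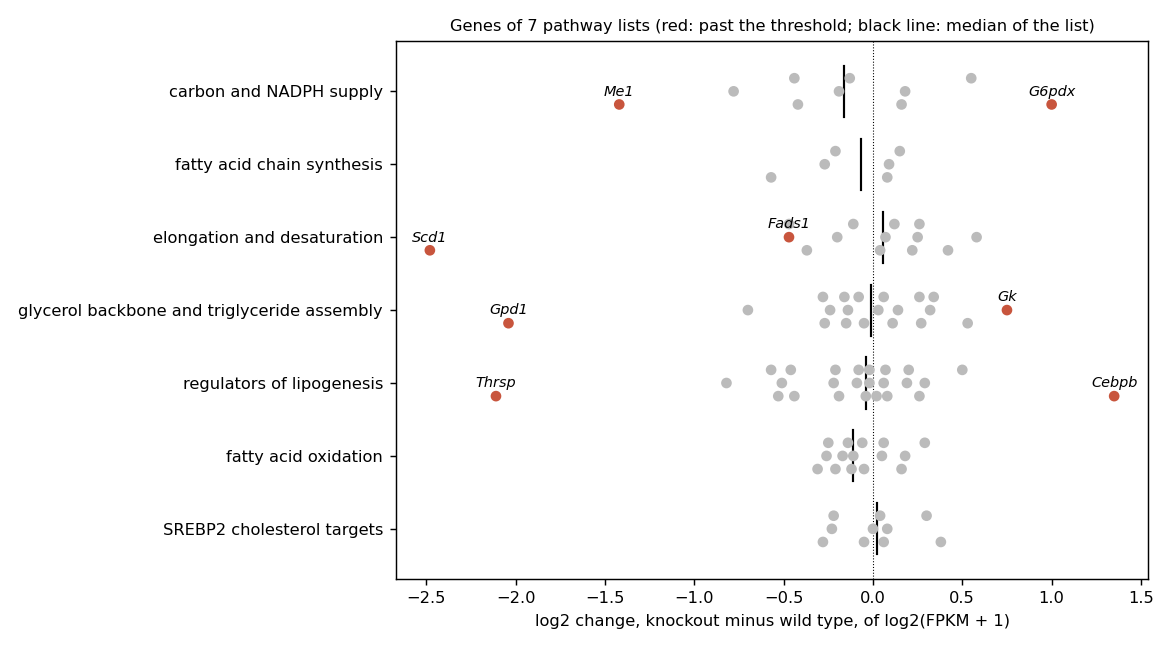
Log2 change, knockout minus wild type, of log2(FPKM + 1) for the tested genes of 7 pathway lists (rows), with genes past the threshold in red and the median of each list as a black line. The medians lie between -0.16 and 0.06, and Scd1, Thrsp, Gpd1 and Me1 lie furthest to the left.

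Markers of other cells moved with genotype beside these genes. Of 11 tested fat cell markers 10 fell and 0 rose, against 3.82% and 1.34% of all genes tested. Their median log2 change was -1.96, beside 0.06 for all genes tested. All 11 were lower without overlap, against 13.7% of all genes tested. The summed level of the 14 listed markers was 708 to 1051 FPKM in the wild type and 137 to 212 in the knockout. Adiponectin (Adipoq) stood at 102, 103 and 99.5 FPKM in the wild type and at 48.4, 37.1 and 30.6 in the knockout libraries (log2 change -1.39, limma adjusted p = 0.0148; 0.0614 without WT replicate 1 and 0.0713 without knockout replicate 2). The lipid droplet coat gene Plin1 stood at 10.7, 6.92 and 6.71 FPKM in the wild type and at 0.376, 0.506 and 0.137 in the knockout libraries (log2 change -2.75, limma adjusted p = 0.00349). Fabp4, the fatty acid carrier of fat cells, went from 103 ± 25.8 to 34.8 ± 17.7 FPKM (mean and SD of 3 libraries). Its adjusted p in limma was 0.0462 at a log2 change of -1.63, and the call was lost without WT replicate 1 (0.123), 2 (0.103) or 3 (0.0890) or knockout replicate 2 (0.162) or 3 (0.109). The brown fat gene Ucp1 was at most 0.0702 FPKM. In bulk RNA fewer cells of a type and less RNA per cell cannot be told apart. The part of fat cell content in the falls of Scd1, Gpd1, Thrsp and Me1 was not tested.

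The tested fat cell markers themselves fell to very different degrees, from 3.42% of the wild-type mean for Retn to 59.6% for Plin4, which did not pass. The 4 lipogenic genes that fell (17.2% to 31.7%) lay inside that range. Each of the 4 was divided by the 10 tested markers that were above 0 in all libraries, a comparison added after the values were seen. Scd1 per marker was lower in every knockout library for 5 markers, higher for 3 and overlapped between the genotypes for 2. For Gpd1 the numbers were 3, 4 and 3, for Thrsp 4, 4 and 2, and for Me1 1, 4 and 5. The ratios thus ran either way with the marker chosen: Scd1 per Adipoq was 1.16 to 1.64 in the wild type and 0.490 to 0.719 in the knockout, whereas Scd1 per Plin1, which had only 11 to 41 reads in a knockout library, was 15.7 to 18.8 and 52.7 to 151. Car3, the carbonic anhydrase of fat and muscle, fell to 25.1% of the wild-type mean. Beside Car3, Gpd1 overlapped between the genotypes (0.126 to 0.149 and 0.116 to 0.132), as did Me1 (0.0411 to 0.0574 and 0.0454 to 0.0817). Scd1 per Car3 was lower in every knockout library, though the ranges nearly touched (0.452 to 0.641 and 0.331 to 0.452). Thrsp per Car3 was lower too (0.059 to 0.0839 and 0.0439 to 0.0566). Beside Fabp4 all 4 genes overlapped. Each ratio is a description with n = 3 per genotype and no test.

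**Figure D5:**
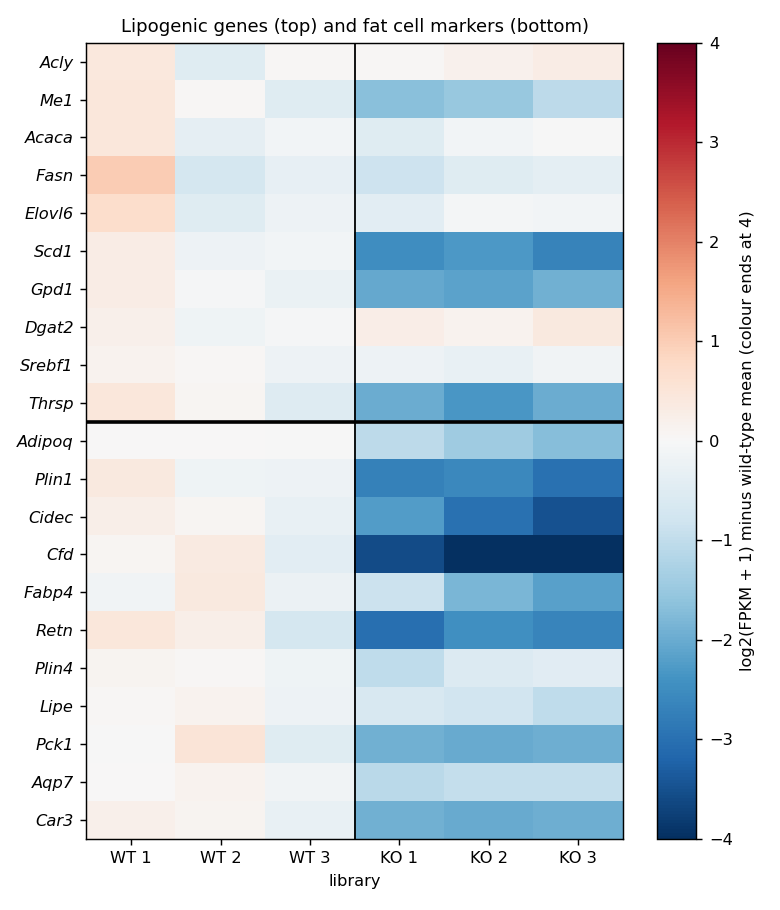
Log2(FPKM + 1) minus the wild-type mean (colour, ending at -4 and 4) for the 10 genes (above the line) and 11 fat cell markers (below it) in each library. All 11 markers and Me1, Scd1, Gpd1 and Thrsp are lower (blue) in the 3 knockout libraries, while Acly and Dgat2 are at or above the wild-type mean there.

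Among the other marker lists, 2 of 8 skeletal muscle genes fell and 0 rose (summed level 4325 to 7854 FPKM in the wild type and 2255 to 3376 in the knockout). Of the 8, 6 were lower without overlap, against 13.7% of all genes tested, and the median log2 change was -1.07. Of 7 osteoblast genes 3 fell (1408 to 2662 and 581 to 1235), and of 4 tested Schwann cell genes 2 fell (33.9 to 40.4 and 19.2 to 21.7). All 7 osteoblast genes and 3 of the 4 Schwann cell genes were lower without overlap (median log2 changes -1.33 and -0.69). Of 6 neutrophil precursor genes 3 rose (3341 to 6205 and 6133 to 8148), and of 5 red cell precursor genes 0 passed in limma, with 0 at an unadjusted p under 0.05 (21501 to 47347 and 23227 to 39656 FPKM). Among the 6 neutrophil precursor genes 5 were higher without overlap, against 14.7% of all genes tested, and the median log2 change was 1.11. Liver markers, which would accompany hepatic lipogenic transcripts, were low: 3 of the 6 were listed at 0 in all libraries, Alb among them, and the summed level was at most 4.04 FPKM. Skin and sebaceous gland markers summed to at most 2.34 FPKM, and 0 of 6 reached the filter. The part of muscle, bone, nerve and myeloid cell content in the levels of the lipogenic genes was not tested.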

How the data were processed

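The authors deposited FPKM values (the unit is named in the table's title), 1 column per library for 54532 genes. Bowtie 0.12.2 and the build mm10 are named in the submitters' processing notes. The counting tool, annotation, use of strand and scaling were not given in the sources used here. Gene IDs were matched to GENCODE M21 (54495 matched, 37 did not), which gave symbols, exon lengths and coordinates.

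Log2(FPKM + 1) values were fitted by limma 3.58.1, run in R 4.3.3, with moderated variances that follow a trend, for genes whose mean FPKM reached 1, with Benjamini-Hochberg adjustment over all 13619. The fit was first tested on simulated data for 12950 genes, with the same dispersion (0.024) for all genes. It recovered 12% of 1.5-fold, 86% of 2-fold, 98% of 4-fold and 100% of 8-fold changes, and 17 of its 165 calls were false. Read numbers were recovered as whole multiples of the FPKM step, with a tolerance of 0.01 reads, for 96.9% of genes above 0. On chromosomes 17, 18 and 19, 17.5%, 47.3% and 46.9% of genes gave none. Statements on reads cover counting error only. Of the 10 genes 5 overlap a gene on the opposite strand, and of those overlapping genes only Rai1 (109 bases of Srebf1) exceeded 0.344 FPKM, at up to 9.03; without strand, reads of such pairs cannot be told apart.

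The members, lists, tests and alternatives were chosen with earlier results of these data known. Named are the 10 genes, their close relatives, list genes past the threshold (or the smallest p where none passed) and 5 markers, plus genes marked as chosen after seeing values. The exploratory within-library ratios were added after seeing the data. A further red cell marker was not analysed here. Figures were drawn with matplotlib 3.10.9.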

Additional observations from a re-analysis of the deposited data

How the results depend on the processing

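The analysis was repeated under 18 alternatives. Of the 10 lipogenic genes 4 passed in the main analysis. Gpd1 passed in all 18 and Scd1 in the 17 that gave it a value, while Acly, Acaca, Fasn, Elovl6, Dgat2 and Srebf1 passed in 0. The number of the 10 genes past the threshold was 2 to 4 when 1 library was left out and 2 without both libraries that stood apart. The number over all genes, 703 in the main analysis, was 143 with no filter on low values, 3354 with array weights, 127 with the replicate block, 1216 with the trend on exon length removed, 239 without both libraries that stood apart, and 62 to 418 when 1 library was left out. Of the pathway genes 8 passed, against 4 with no filter, 31 with array weights, 3 with the replicate block, 5 without both libraries that stood apart and 2 to 6 when 1 library was left out. Fewer libraries and more genes tested are part of how these settings were built. The cause of the other shifts was not tested.

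Some genes that did not pass changed sign when 1 library was left out. The log2 change was -0.38 to 0.02 for Acaca, -0.06 to 0.39 for Acly, -0.44 to 0.15 for Elovl6, -0.08 to 0.29 for Scd2, -0.06 to 0.21 for Mid1ip1 and -0.14 to 0.06 for Srebf2. Libraries with the same replicate number did not deviate together (correlations of -0.49, -0.27 and 0.16 for numbers 1, 2 and 3). The trends with exon length had opposite signs in WT and knockout replicate 1 (rho 0.41 and -0.45) and in WT and knockout replicate 2 (-0.42 and 0.28). The correlations therefore cannot decide whether the numbers pair the libraries. With the replicate block 3 of the 10 genes passed, and the call of Me1 was lost (limma adjusted p = 0.111), as it was with no filter on low values (0.0867). The block also ended the calls of G6pdx (0.0851), Fads1 (0.218), Gk (0.0984), Cebpb (0.0999), Adipoq (0.0586) and Fabp4 (0.0999). Voom on recovered reads gave no value for Scd1. Among those of the 10 genes that gave whole reads, which leaves out Scd1, read depth limits Thrsp most, with 99 reads in its lowest library.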
